A study of Mus musculus with 24 samples.

Results

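The genes described here are 32 genes of mitochondrial and peroxisomal fatty acid oxidation and of ketone body use, taken by symbol from a list of members of these pathways. All 32 were found among the 16118 genes of the expression table, and all 32 passed the filter on low counts, which kept 16005 genes. They comprise 5 genes of the carnitine shuttle, 9 of the mitochondrial β-oxidation spiral, 3 of electron transfer from it, 3 auxiliary enzymes for unsaturated chains, 2 thioesterases, 6 peroxisomal genes, 2 ketone body enzymes and 2 nuclear receptors.

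Polyadenylated RNA of the inguinal fat pad, a subcutaneous white adipose depot, was sequenced in 24 mice, with 1 library per animal. The study compared mice weaned in the standard way with mice kept with their mother, in each sex. The animals formed 6 groups of 4, identified by labels for age, sex and weaning: males and females at day 21 (p21), males and females at day 28 after separation from the mother at day 21 (standard weaning, SW), and males and females at day 28 that had stayed with the mother (delayed weaning, DW). The labels used here name no strain, genotype or litter, and each library carries its own animal number, so p-values measure the spread between animals. The descriptions of the p21 libraries also carry the weaning label SW, and the p21 animals of a sex are compared with both p28 groups of that sex. Titles of the p21 libraries read p28, whereas their descriptions and age labels read p21, and the latter were followed. The title of p21 female 56 gives another animal number than its description, and the description was followed. The animal numbers of the 2 ages do not interleave (30 to 56 at p21, 73 to 124 at p28), so age and anything tied to that numbering cannot be told apart.

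Long-chain fatty acids enter the mitochondrial matrix as carnitine esters. Cpt1 on the outer membrane forms them, the carrier Slc25a20 moves them across and Cpt2 returns them to coenzyme A, after which acyl-CoA dehydrogenases, hydratases, hydroxyacyl-CoA dehydrogenases and thiolases shorten the chain in repeated rounds and electron transfer flavoprotein passes the electrons to the respiratory chain. Peroxisomes shorten very long and branched chains. Milk is rich in fat, and in white adipose tissue these genes are expressed beside a much larger capacity for fatty acid synthesis and storage, with PPAR family receptors among their known transcriptional regulators.

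The deposited values are reads divided by 1 factor per library, here called normalised values. They correspond to 57600711 to 302145813 reads per library. Values of a group are printed in the order of its animal numbers. Adipocyte markers were high in every library (Adipoq 787 to 1527, Fabp4 9997 to 17456). The sum of 7 adipocyte genes was 12952 to 15593 in p21, 16523 to 22508 in SW and 17436 to 21157 in DW males. In females it was 15986 to 20828, 15597 to 20708 and 15895 to 20497 in that order. Both male p28 groups thus lay above the p21 males in this sum. Its largest term was Fabp4, with a median of 12837 beside 1301 for Adipoq, the next. The part of this shift in the male results was not tested. Of 12 skeletal muscle genes, limma called 10 higher in SW males and 10 in DW males than in p21 males (all genes 6.9% and 8.86%). It called 0 higher in SW or DW females than in p21 females (all genes 7.39% and 5.95%). The summed value of the muscle genes in males was 8.61 to 628 at p21, 505 to 7501 after standard and 374 to 7953 after delayed weaning. In females it was 9.31 to 1776, 427 to 3703 and 5.76 to 2383 in that order, with medians of 364, 1713 and 119. The sum of 7 mammary epithelial genes was 40.7 to 156 in females at p21, 253 to 350.0 in SW and 96.5 to 212 in DW females, and 0.339 to 40.3 in males. Of these 7, limma called 5 higher in SW and 1 in DW than in p21 females (all genes 7.39% and 5.95%). Summed thermogenic genes were 642 to 1746, 837 to 1399 and 515 to 886 in p21, SW and DW males and 814 to 1334, 606 to 1144 and 351 to 950.2 in the female groups, and 5 lymph node genes summed to 205 to 509 over all libraries. A total of 3 libraries stood apart: p21 male 53, with 14054 genes having a read, and DW females 82 and 83, whose correlation with the other DW females 76 and 77 was 0.925 to 0.955, and whose animal numbers fall in a later run (81 to 87) than those of 76 and 77 (73 to 80). In bulk tissue, fewer cells of a type and less RNA per cell cannot be told apart.

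Measured per kilobase of exon, which allows genes to be compared, the module spanned a wide range of levels. Acyl-CoA dehydrogenases led, with means over the 24 libraries of 223 for the long-chain enzyme Acadl, 167 for the medium-chain enzyme Acadm and 152 for the very-long-chain enzyme Acadvl, followed by the thiolase Acaa2 at 148 and the electron transfer flavoprotein subunit Etfa at 130.2. The SDs over libraries of these means were 34.01, 26.4, 29.04, 50.2 and 26.7, and the ranges of neighbours in this order overlapped. The short-chain dehydrogenase Acads ranked 16 of 32 at 31.3. The entry enzyme Cpt1a ranked 26 of 32 at 6.28, and the lowest were Ppara at 4.45, Ppard at 3.47, Bdh1 at 0.756, Cpt1b at 0.458 and Acot1 at 0.386 per kilobase. Exon lengths are unions over all annotated transcripts, which lowers the per-kilobase value of genes with long unused exons.

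From p21 to p28, 10 of the 32 genes changed in at least 1 of 4 comparisons. Those that rose were the carnitine shuttle genes Cpt1a and Crat and the peroxisomal gene Ehhadh, and those that fell were Acadm, Acadvl and Acaa2 of the spiral, Etfa and Etfdh of electron transfer, the ketone gene Bdh1 and the receptor gene Ppara. In SW males 3 genes rose and 1 fell at a limma adjusted p under 0.05, where 11.9% of all genes were called (6.9% higher and 4.97% lower). DW males had 2 genes that rose and 2 that fell, against 15% of all genes (8.86% higher and 6.1% lower). In SW females 1 rose and 6 fell, against 11.6% of all genes (7.39% higher and 4.23% lower), and in DW females 1 rose and 3 fell, against 12.1% (5.95% higher and 6.16% lower). The 4 of 32 genes called in SW males, DW males and DW females are a share near that of all genes, and the 7 of 32 in SW females a larger one, a difference that was not tested. The SW and DW comparisons of a sex share the p21 animals of that sex. The median log2 change of the 32 genes was 0.13 in SW males, -0.06 in DW males, -0.19 in SW females and -0.22 in DW females, beside 0.01, 0.02, 0.01 and 0.00 over all genes tested. Without overlap between the p28 and p21 animals were 3 genes higher and 1 lower in SW males (8.53% and 7.69% of all genes), 3 higher and 3 lower in DW males (12.4% and 10.7%), 1 higher and 6 lower in SW females (11.4% and 10.1%) and 1 higher and 7 lower in DW females (7.44% and 7.61%). In SW females 24 of the 32 changes were below 0 (75.00%, all genes 47.97%).

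**Figure D1:**
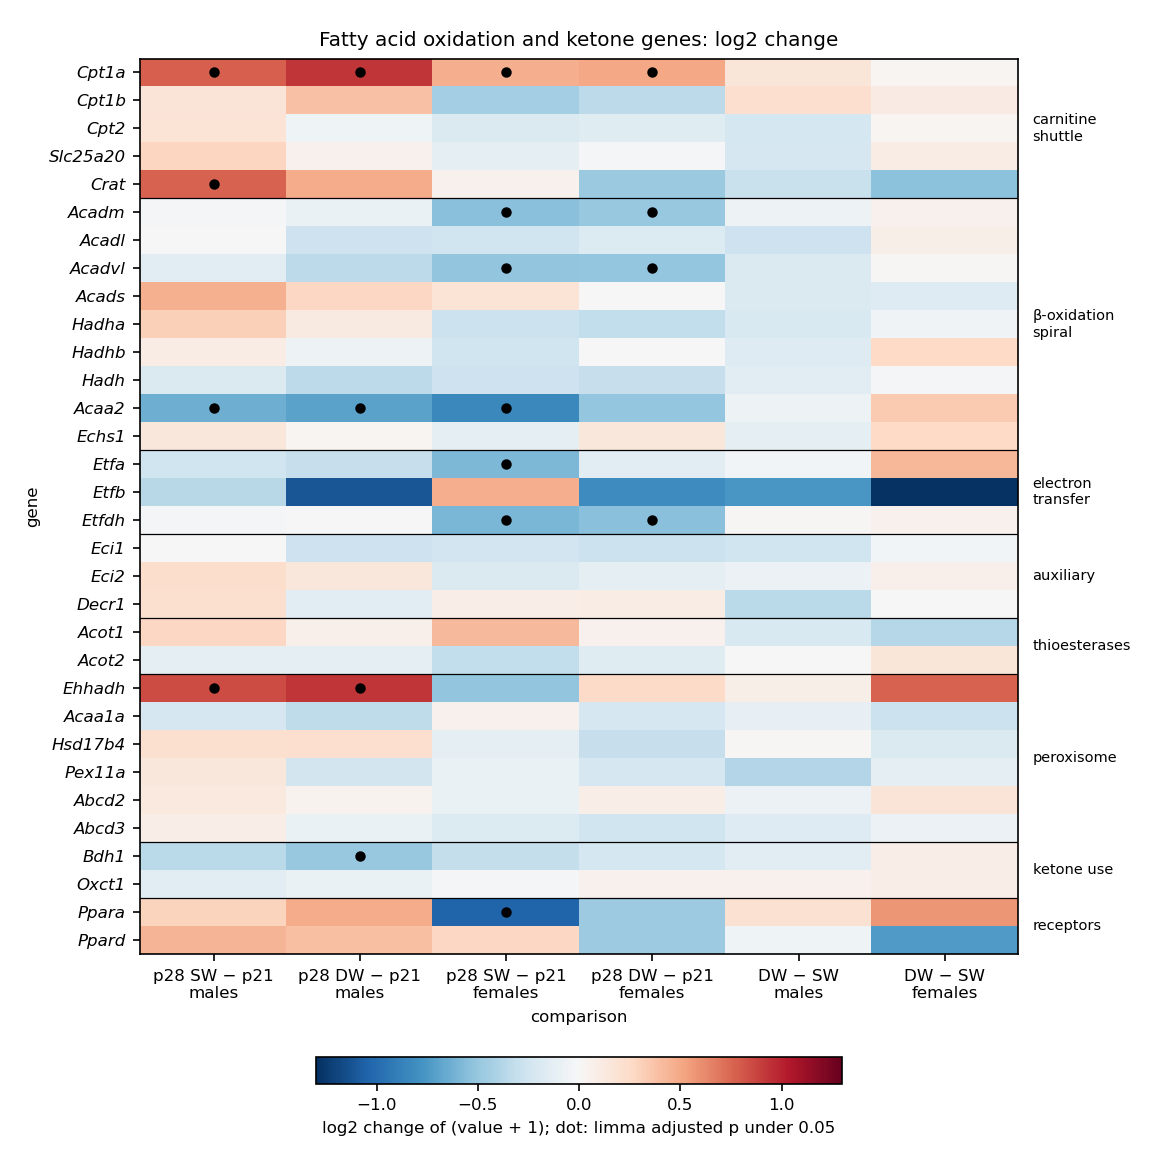
Log2 change of (normalised value + 1) of the 32 genes (rows, by role) in the 4 comparisons of p28 with p21 animals and the 2 comparisons of DW with SW animals (columns); red is higher and blue lower in the first-named group, and a dot marks a limma adjusted p under 0.05. Cpt1a carries a dot in all 4 age columns, the dots of the dehydrogenases Acadm and Acadvl and of Etfdh stand in the female columns, and the DW − SW columns carry no dot.

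Cpt1a, the liver-type carnitine palmitoyltransferase that controls entry of long-chain fatty acids into mitochondria, rose from p21 to p28 in both sexes and under both weaning regimes. Its normalised values were 36.9, 34.8, 35.4 and 28.6 in p21 males, 55.3, 61.2, 57.9 and 59.99 in SW males and 58.2, 63.2, 75.8 and 65.3 in DW males. In females they were 31.2, 34.8, 33.2 and 36.1 at p21, 41.04, 50.6, 42.7 and 56.8 after standard weaning and 53.3, 49.4, 42.6 and 47.7 after delayed weaning. Every p28 animal was above every p21 animal of its sex. The log2 change was 0.78 ± 0.11 (SE, n = 4 per group, limma adjusted p = 0.000104) in SW males and 0.93 ± 0.11 (adjusted p = 3.2e-05) in DW males. In females it was 0.48 ± 0.11 (limma adjusted p = 0.00432) in SW and 0.50 ± 0.11 (adjusted p = 0.00404) in DW animals. The summed muscle genes moved with age in males, and with their mean log2 value as a covariate the change of Cpt1a was 0.69 in SW males (limma adjusted p = 0.00783) and 0.85 in DW males (adjusted p = 0.00221).

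The Cpt1a promoter is printed because this gene changed in all 4 age comparisons. The sequence is from RefSeq on GRCm38.p6, chr19:3323051-3323350, plus strand, from 250 bases before to 50 bases after the start site. The 6 bases in capitals are a match, on the minus strand at −94 from the start, to AGGTCA, the core element bound by many nuclear receptors.

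Cpt1a: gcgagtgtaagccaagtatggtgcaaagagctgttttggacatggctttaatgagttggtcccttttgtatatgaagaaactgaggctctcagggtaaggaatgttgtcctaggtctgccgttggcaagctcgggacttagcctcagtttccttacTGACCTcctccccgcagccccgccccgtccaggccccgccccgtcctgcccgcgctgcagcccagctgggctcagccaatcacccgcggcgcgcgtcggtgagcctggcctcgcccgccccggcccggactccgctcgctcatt

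Of the other carnitine shuttle genes, Crat, which exchanges short-chain acyl groups between coenzyme A and carnitine, rose in SW males. Its values were 225, 288, 301 and 340.3 in p21 males, 438, 609, 509 and 415 in SW males and 372, 443, 382 and 402 in DW males, and neither p28 group overlapped the p21 group. The log2 change was 0.77 ± 0.22 in SW males (limma adjusted p = 0.0255) and 0.48 ± 0.22 in DW males (adjusted p = 0.142, or 0.0409 with only these groups fitted). The SW call was lost without p21 male 37 (adjusted p = 0.074), SW male 84 (0.083) or SW male 85 (0.0642), and with the muscle genes as a covariate (log2 change 0.73, adjusted p = 0.171). In females the change was 0.05 in SW and -0.48 in DW animals, neither called except the DW change without DW female 76 (adjusted p = 0.0416), and DW females 82 and 83, at 207 and 168, lay below all other 22 libraries.

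Cpt2, the inner-membrane carnitine palmitoyltransferase, and the carrier Slc25a20 were not called by limma in any comparison of all libraries. Their values were 106 to 165 and 62.6 to 119 over the 24 libraries. Cpt1b, the muscle-type isoform, lay between 0.570 and 2.93 (37 to 394 reads), while the muscle sum spanned 5.76 to 7953. Per kilobase, Cpt1a exceeded Cpt1b in every library, by 5.52 to 30.6 times with a median of 15.3. Library DW female 82 had the highest Cpt1b value, 2.93, and the lowest muscle sum, 5.76.

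**Figure D2:**
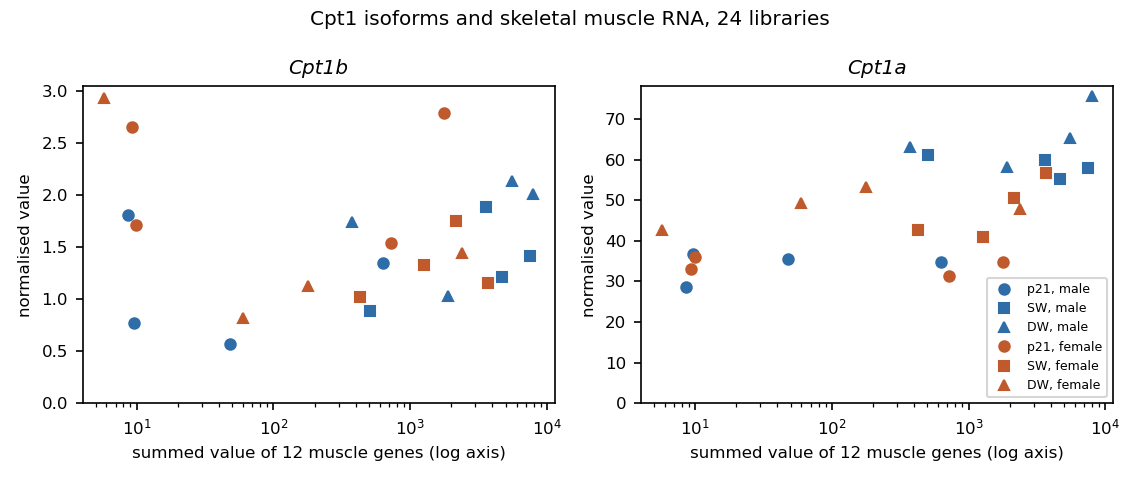
Normalised value of Cpt1b (left) and Cpt1a (right) against the summed normalised value of 12 skeletal muscle genes on a log axis, 1 point per library, coloured by sex and shaped by group. Cpt1b lies between 0.570 and 2.93 at low and high muscle sums alike, and the p21 libraries lie below the p28 libraries for Cpt1a.

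In the β-oxidation spiral, the dehydrogenases Acadm and Acadvl fell from p21 to p28 in females under both regimes. Acadm, which acts on medium chains, had values of 815, 756, 860.3 and 739.8 in p21 females, 539, 604, 429 and 613 in SW females and 549, 573, 599 and 529.9 in DW females. All 8 p28 females were below all 4 p21 females. The log2 change was -0.55 ± 0.12 in SW (limma adjusted p = 0.00386) and -0.49 ± 0.12 in DW females (adjusted p = 0.00989), the latter at adjusted p = 0.0675 when only these groups were fitted. In males Acadm was 611, 669.7, 706 and 782 at p21, 665, 756, 645 and 650.3 in SW and 570.3, 734, 580.2 and 727 in DW animals, with overlapping groups and log2 changes of -0.02 and -0.09 (adjusted p = 0.923 and 0.664). The difference between the sexes in this change was -0.52 ± 0.17 for SW and -0.40 ± 0.17 for DW, and neither passed the test (limma adjusted p = 0.217 and 0.245). The mammary genes moved in the opposite direction in SW females, with a median log2 change of 1.94 over the 7, and their part in the female results was not tested.

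Acadvl, which acts on very long chains, had values of 528, 589, 537 and 409.6 in p21, 373, 381, 297 and 386 in SW and 342, 366, 396 and 341 in DW females. The p28 females were again all below the p21 females. Its log2 change was -0.52 ± 0.13 in SW (limma adjusted p = 0.0125) and -0.50 ± 0.13 in DW females (adjusted p = 0.0169). The SW call was lost without SW female 75 (adjusted p = 0.0563), the DW call without p21 female 36 (0.0618) or DW female 83 (0.0522) and when only these groups were fitted (0.0921). In males the changes were -0.15 and -0.34, neither called; the DW change passed without p21 male 37 (adjusted p = 0.0496).

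Acaa2, a mitochondrial thiolase that releases acetyl-CoA at the end of a round, fell in SW females, SW males and DW males. Values in females were 312, 349, 309 and 212 at p21, 145, 199, 135 and 176 in SW and 185, 185, 279 and 184 in DW animals, and SW females did not overlap p21 females (log2 change -0.84 ± 0.21, limma adjusted p = 0.00888). The DW change in females was -0.50 ± 0.21 (adjusted p = 0.115), with DW female 82 the highest of its group. Values in males were 183, 261, 409.9 and 384 at p21, 203, 212, 174 and 171 in SW and 166, 209, 173 and 178 in DW animals. The p21 males spread from 183 to 409.9, and p21 male 37 lay among the p28 males.

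The male changes of Acaa2 were -0.64 ± 0.21 in SW (limma adjusted p = 0.0482) and -0.70 ± 0.21 in DW animals (adjusted p = 0.0272), and both calls depended on single animals. The SW call was lost in 7 of 8 fits without 1 animal of these groups, all but p21 male 37: p21 males 38, 53 and 54 (adjusted p = 0.0554, 0.167 and 0.134) and SW males 78, 84, 85 and 124 (0.069, 0.0626, 0.115 and 0.107). The DW call was lost without p21 male 53 (0.113) or 54 (0.0865) and without DW male 79, 86 or 87 (0.0695, 0.0637 and 0.0679). With the muscle genes as a covariate the limma adjusted p was 0.228 and 0.144, and with only these groups fitted 0.144 and 0.0828.

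The remaining spiral genes were not called in any age comparison. Acadl was at 371 to 618 in p21 females, 322 to 447 in SW and 394 to 472 in DW females, with log2 changes of -0.26 and -0.18. Acads, the short-chain dehydrogenase, had log2 changes above 0 in SW males (0.46 ± 0.23, limma adjusted p = 0.204) and DW males (0.27). Hadh, the short-chain hydroxyacyl-CoA dehydrogenase, had changes of -0.19, -0.34, -0.27 and -0.30 in SW males, DW males, SW females and DW females. In DW males Hadh passed the test without p21 male 37 (adjusted p = 0.0184) and with DESeq2 (adjusted p = 0.0385). Echs1, the short-chain enoyl-CoA hydratase, had changes of 0.15, 0.02, -0.11 and 0.15 in the same order.

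Hadha and Hadhb encode the α and β subunits of the mitochondrial trifunctional protein, which carries out the last 3 steps of the spiral for long chains. Hadha was at 375 to 522, 497 to 674 and 401 to 559.9 in p21, SW and DW males and at 458 to 616, 325 to 515 and 398 to 437 in the female groups. Hadhb was at 417, 411, 708 and 703 in DW females, in the order of animals 76, 77, 82 and 83, and at 348 to 606 in the 22 libraries other than 82 and 83. The ratio of Hadhb to Hadha per kilobase was 2.16 and 2.13 in DW females 82 and 83 and 1.11 to 1.60 in the other 22 libraries, while Hadha in those 2 animals lay within the range of the others. Neither gene was called in any comparison.

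**Figure D3:**
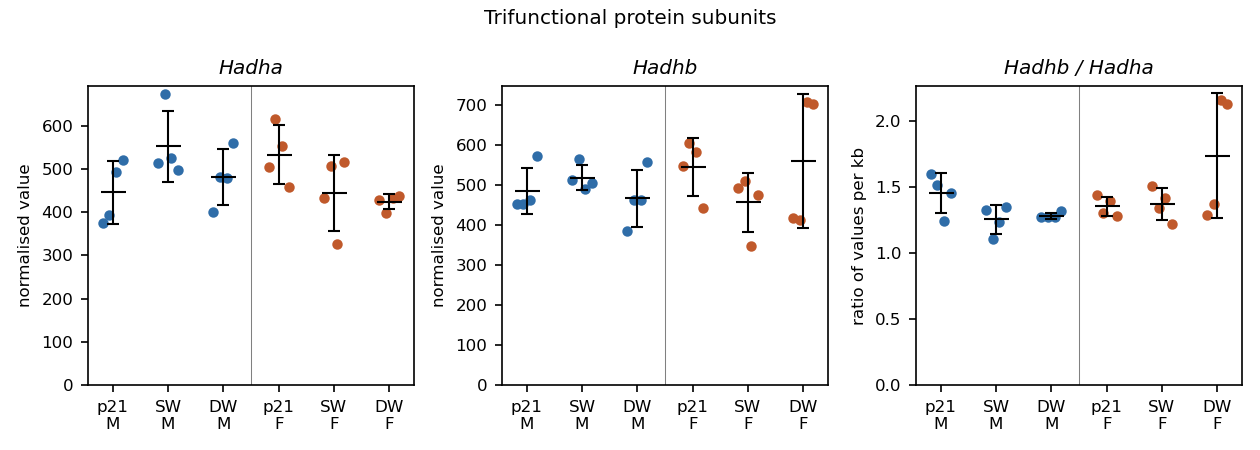
Normalised values of Hadha and Hadhb and the ratio of their values per kilobase, by group (M, male; F, female; points are animals in order of number, bars the mean ± SD, n = 4). DW females 82 and 83 are the 2 high points of the last group for Hadhb and for the ratio, at 2.16 and 2.13, and not for Hadha.

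The promoter of Hadhb is printed because the 2 genes lie head to head: in RefSeq on GRCm38.p6 their start sites are 273 bases apart on chromosome 5, Hadha on the minus and Hadhb on the plus strand. The window is chr5:30155003-30155302, plus strand, and its first 228 bases are also part of the Hadha window, read on the other strand. No base is capitalised.

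Hadhb: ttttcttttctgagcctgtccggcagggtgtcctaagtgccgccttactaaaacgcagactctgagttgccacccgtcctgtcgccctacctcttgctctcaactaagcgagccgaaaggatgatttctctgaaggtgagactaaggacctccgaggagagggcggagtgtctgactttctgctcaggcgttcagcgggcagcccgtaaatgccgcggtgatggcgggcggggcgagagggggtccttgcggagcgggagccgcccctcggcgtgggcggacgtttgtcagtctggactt

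Of the 3 genes of electron transfer from the dehydrogenases, Etfdh and Etfa fell in SW females and Etfdh also in DW females. Etfdh, the oxidoreductase that passes electrons from electron transfer flavoprotein to ubiquinone, had values of 315, 272, 254 and 224 in p21, 176, 186, 136 and 206 in SW and 196, 183, 172 and 174 in DW females. No p28 female reached the lowest p21 female. Its log2 change was -0.60 ± 0.12 in SW (limma adjusted p = 0.0024) and -0.55 ± 0.12 in DW females (adjusted p = 0.00623). Without DW females 82 and 83 the DW change was -0.48 (adjusted p = 0.0549), and with only these groups fitted its adjusted p was 0.0539. In males Etfdh was at 196, 201, 234 and 247 at p21, 221, 236, 213 and 193 in SW and 191, 227, 207 and 252 in DW animals, with changes of -0.02 and 0.00. The difference between the sexes in the change did not pass the test (-0.58 ± 0.18 for SW, limma adjusted p = 0.165; -0.54 ± 0.18 for DW, 0.163).

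Etfa, the α subunit of the flavoprotein, was at 346, 284, 277 and 232 in p21, 201, 195, 163 and 196 in SW and 200.3, 195, 339 and 317 in DW females. SW females were all below p21 females (log2 change -0.58 ± 0.15, limma adjusted p = 0.0135), a call that was lost without p21 female 30 (adjusted p = 0.0616) or SW female 75 (0.0529). DW females were split, with 76 and 77 near the SW females and 82 and 83 within the range of the p21 females, and the DW change was -0.15 with all 4 and -0.51 (adjusted p = 0.0174) without 82 and 83. Both male p28 groups lay below the p21 males without overlap (244 to 282 at p21, 184 to 240.4 in SW and 199.7 to 221 in DW animals), but the changes of -0.26 and -0.30 were not called (limma adjusted p = 0.279 and 0.187). Etfb, the β subunit, ranged from 1.57 in DW female 83 to 77.8 in p21 male 53, and its SE of 0.52 per comparison was the widest of the 32 genes. It was not called by limma in any comparison of all libraries, and DESeq2 called it lower in DW than in p21 males (adjusted p = 0.0358).

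Of the genes that fell in SW females, the promoters of the 3 with a motif match are printed; the windows of Etfdh and Ppara, which fell there too, hold neither motif and are not printed. They are RefSeq windows on GRCm38.p6: Acadm at chr3:153944594-153944893, Acadvl at chr11:70015379-70015678 and Etfa at chr9:55512194-55512493, all on the minus strand. Capitals mark AGGTCA on either strand in Acadm and Acadvl, and in Etfa a match with at most 2 mismatches to AGGTCANAGGTCA, the paired element with a spacer of 1 base that PPAR and RXR bind. The promoter of Acaa2, which also fell in SW females, was not scanned, nor were those of Hsd17b4, Cpt1b, Crat, Decr1 and Abcd2. Promoters of the other 26 of the 32 genes were scanned. AGGTCA occurred in 4 of them (Acadm, Acadvl, Cpt1a and Echs1) and in 16.3% of all 32851 promoters of this length, and the paired element in 3 (Echs1, Etfa and Slc25a20) and in 3.86% of all promoters; a window can hold both, and a match is a description of the letters only.

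Acadm: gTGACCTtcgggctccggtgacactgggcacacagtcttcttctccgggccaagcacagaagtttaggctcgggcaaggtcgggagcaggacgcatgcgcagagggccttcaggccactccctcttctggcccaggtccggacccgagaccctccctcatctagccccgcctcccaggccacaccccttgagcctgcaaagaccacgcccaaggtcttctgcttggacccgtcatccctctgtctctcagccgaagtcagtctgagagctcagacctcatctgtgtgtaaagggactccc

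Acadvl: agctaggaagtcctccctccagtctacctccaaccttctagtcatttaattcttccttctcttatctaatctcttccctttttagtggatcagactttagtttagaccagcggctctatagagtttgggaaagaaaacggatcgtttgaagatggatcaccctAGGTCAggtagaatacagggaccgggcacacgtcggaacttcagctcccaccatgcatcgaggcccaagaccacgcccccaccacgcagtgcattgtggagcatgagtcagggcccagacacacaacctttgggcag

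Etfa: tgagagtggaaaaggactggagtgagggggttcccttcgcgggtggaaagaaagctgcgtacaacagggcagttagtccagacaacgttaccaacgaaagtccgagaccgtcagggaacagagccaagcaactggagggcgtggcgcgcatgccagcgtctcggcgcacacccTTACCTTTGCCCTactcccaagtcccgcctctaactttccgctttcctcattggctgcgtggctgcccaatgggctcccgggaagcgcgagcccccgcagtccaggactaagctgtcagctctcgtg

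**Figure D4:**
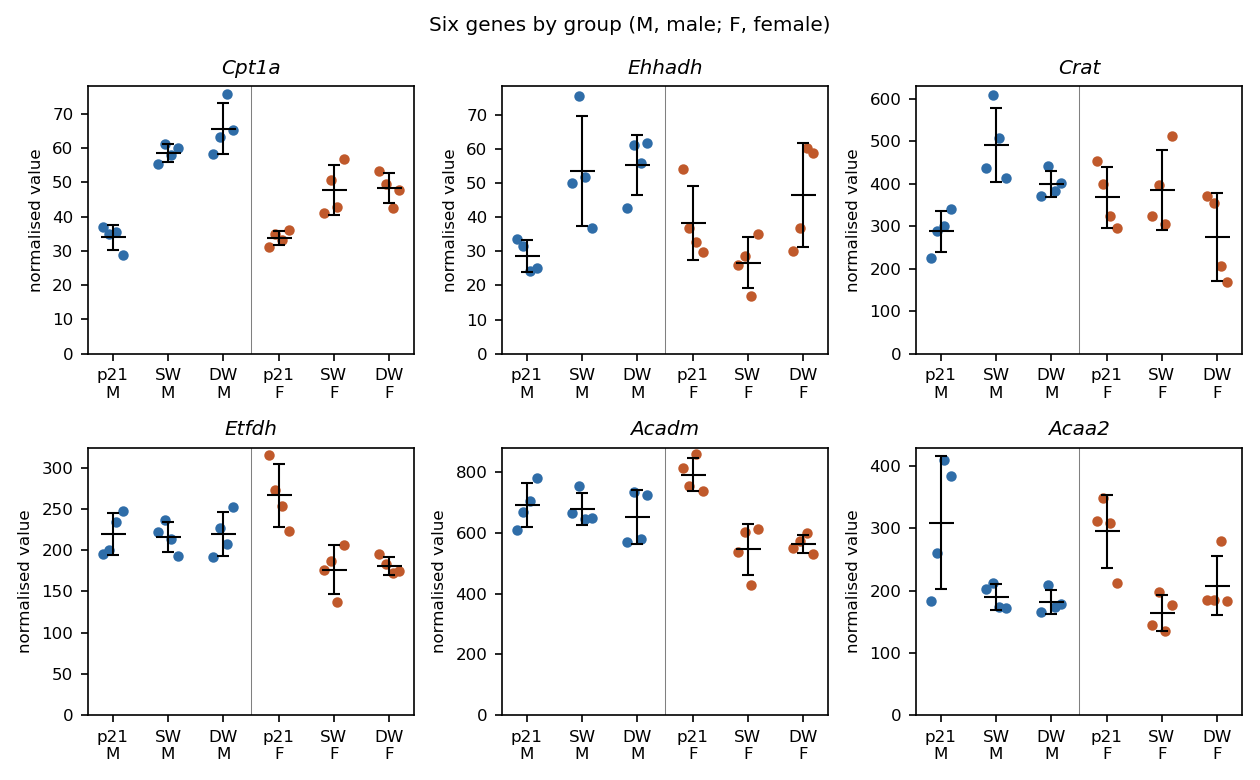
Normalised values of 6 genes by group (M, male; F, female; points are animals in order of number, bars the mean ± SD, n = 4; axes start at 0). Cpt1a is higher in both p28 groups of each sex, Ehhadh and Crat are higher in p28 males than in p21 males, Etfdh and Acadm are lower in p28 females, and the p21 males spread widely for Acaa2.

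The auxiliary enzymes Eci1 and Eci2, which shift double bonds, and Decr1, the dienoyl-CoA reductase, handle unsaturated chains. None was called in an age comparison, with log2 changes between -0.28 and 0.22. The thioesterases Acot1 (cytosolic) and Acot2 (mitochondrial), which release free fatty acids from coenzyme A, were not called with age either. They are close paralogs, so reads may be split between them, and Acot1 was low (26 to 542 reads); per kilobase Acot2 exceeded Acot1 by 4.38 to 66.99 times.

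Among peroxisomal genes, Ehhadh, the bifunctional hydratase and dehydrogenase, rose with age in males. Its values were 33.6, 31.6, 24.2 and 25.2 in p21 males, 50.2, 75.7, 51.9 and 36.8 in SW males and 42.9, 61.2, 55.9 and 61.9 in DW males, and both p28 groups lay above the p21 group. The log2 change was 0.85 ± 0.25 in SW (limma adjusted p = 0.0274) and 0.93 ± 0.25 in DW males (adjusted p = 0.0149). The SW call was lost without p21 male 53 (adjusted p = 0.0734) or 54 (0.062) or SW male 84 (0.1) or 85 (0.0607), and the DW call without p21 male 53 (0.0509) or DW male 87 (0.051). With the muscle genes as a covariate the changes were 0.69 (limma adjusted p = 0.255) and 0.77 (adjusted p = 0.156).

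In females Ehhadh was at 54.1, 36.8, 32.9 and 29.9 in p21, 26.04, 28.8, 16.9 and 35.2 in SW and 30.2, 36.8, 60.5 and 58.96 in DW animals, with overlapping groups and changes of -0.52 and 0.25 that were not called. SW females were all below SW males (log2 difference -0.98 ± 0.25, limma adjusted p = 0.0207). That call was lost without SW male 84 (adjusted p = 0.125) or 85 (0.0522), without SW female 73 (0.0545) or 75 (0.12), and with only these groups fitted (0.0526). The difference between the sexes in the SW age change was -1.37 ± 0.35 and missed the threshold (limma adjusted p = 0.0598). It passed without SW male 124 (0.034), p21 female 56 (0.045) or SW female 81 (0.0387) and with DESeq2 (0.0214).

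The other 5 peroxisomal genes were not called in any age comparison. Hsd17b4, another bifunctional enzyme, was at 168 to 274 over all libraries, and its changes were 0.21 and 0.22 in SW and DW males and -0.12 and -0.30 in SW and DW females, the last called without DW female 76 (limma adjusted p = 0.0438). Acaa1a, a peroxisomal thiolase, was at 21.5 to 59.6, and Pex11a, a factor in peroxisome division, at 36.8 to 76.9. The fatty acid transporters Abcd2 and Abcd3 were at 241 to 422 and 103 to 156, and Abcd2 exceeded Abcd3 per kilobase by 2.09 to 3.31 times. Leaving out DW females 82 and 83, chosen after seeing the data, kept only DW females 76 and 77. In that fit Abcd3 (-0.47, limma adjusted p = 0.0181) and Pex11a (-0.53, adjusted p = 0.0403) were lower in DW than in p21 females. With all DW females the change of Abcd3 was -0.26 (limma adjusted p = 0.145).

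Ketone bodies are used by way of Bdh1, which oxidises hydroxybutyrate to acetoacetate, and Oxct1, which activates acetoacetate with coenzyme A. Bdh1 was at 2.76, 2.79, 4.25 and 4.76 in p21 males, 2.61, 2.45, 2.10 and 3.21 in SW males and 2.16, 2.42, 2.41 and 1.95 in DW males. DW males were all below p21 males (log2 change -0.50 ± 0.14, limma adjusted p = 0.0204), and SW males overlapped them (-0.35 ± 0.14, adjusted p = 0.102). The DW call was lost without p21 male 53 (adjusted p = 0.068) or 54 (0.0736) or DW male 87 (0.0723), with only these groups fitted (0.0787) and with the muscle covariate (log2 change -0.42, 0.179). In females Bdh1 was at 3.27 to 3.90 at p21, 2.15 to 3.55 in SW and 2.58 to 3.21 in DW animals. Oxct1 was at 145 to 216 in all libraries, with no call and log2 changes between -0.14 and 0.06 with age; per kilobase it exceeded Bdh1 by 33.0 to 101 times.

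Ppara, the receptor that activates many of these genes, was at 26.9, 19.2, 27.6 and 21.3 in p21, 9.09, 14.1, 9.17 and 12.1 in SW and 9.96, 10.2, 20.7 and 35.9 in DW females. SW females were all below p21 females (log2 change -1.04 ± 0.34, limma adjusted p = 0.0487), but leaving out any 1 of these 8 animals ended the call (p21 females 30, 36, 55 and 56: adjusted p = 0.118, 0.0565, 0.12 and 0.0755; SW females 73, 74, 75 and 81: 0.117, 0.0534, 0.115 and 0.0799). It was also lost with edgeR (adjusted p = 0.0547) and with the muscle covariate (0.0951). DW females were split, with 82 and 83 above 76 and 77, and without 82 and 83 the DW change was -1.14 (limma adjusted p = 0.0325) in place of -0.47 (0.391).

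In males Ppara was at 14.01, 11.3, 9.17 and 17.02 at p21, 9.03, 17.7, 12.9 and 27.6 in SW and 12.5, 19.8, 15.4 and 27.1 in DW animals, with overlapping groups and no call. Ppard, the related receptor present in most tissues, was at 15.5, 25.6, 17.1 and 28.6 in p21, 27.5, 25.6, 31.01 and 32.1 in SW and 28.6, 32.7, 25.5 and 25.2 in DW males. In females it was at 20.9, 29.1, 23.2 and 26.9 at p21, 21.9, 29.3, 32.04 and 40.5 after standard and 34.1, 35.4, 11.4 and 6.69 after delayed weaning. DW females 82 and 83 had the lowest Ppard values of all 24 libraries, and the gene was not called with age.

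Without DW females 82 and 83, chosen after seeing the data, 1 of the 32 genes was higher and 6 were lower in DW than in p21 females: Cpt1a rose, and Acadm, Acadvl, Etfa, Abcd3, Pex11a and Ppara fell. In that fit 4.62% higher and 4.08% lower of all genes were called. Leaving out p21 male 53 as well left the log2 changes of DW females as they were, since that male is in neither group compared. Only the spread that all groups share in the fit was changed for them. This fit gave 1 higher and 8 lower in DW females, with Etfdh and Cpt1b added, where 6.41% higher and 5.84% lower of all genes were called. It also gave 3 higher and 0 lower in SW males (Cpt1a, Crat and Ehhadh, all genes 8% higher and 8.37% lower) and 2 higher and 0 lower in DW males (Cpt1a and Ehhadh, all genes 8.66% higher and 7.7% lower). With the muscle genes as a covariate only Cpt1a was called in SW males and in DW males, where 2.37% and 3.81% of all genes were. Over the 32 genes, 82 and 83 were both above 76 and 77 in 17 and both below in 9, where 77.7% of 13152 genes with a mean value of at least 1 were apart in this way. They were outside the range of the other 22 libraries in 5 of 32 (Hadhb above; Crat, Etfb, Hsd17b4 and Ppard below), where 26.7% of those genes were.

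Delayed and standard weaning were then compared at day 28. None of the 32 genes differed by limma in males or in females, where 0.256% and 1.27% of all genes were called. edgeR and DESeq2 on the recovered reads also called 0 of 32 in both sexes. At an unadjusted p under 0.05 limma had 2 of 32 genes in males, Pex11a (-0.38 ± 0.16, adjusted p = 0.614) and Decr1 (-0.35 ± 0.15, adjusted p = 0.615), both lower in DW, where 6.94% of all genes were. The median change of the 32 genes in males was -0.13 with 25 of 32 below 0 (78.1%), beside 0.00 and 48.9% over all genes. The 95% intervals are not adjusted for the number of genes and give the differences compatible with the data. They were -0.07 to 0.38 in males and -0.20 to 0.24 in females for Cpt1a. For Acadm they were -0.31 to 0.19 and -0.20 to 0.30, and for Etfb -1.83 to 0.32 and -2.36 to -0.22.

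In females 5 of 32 genes had an unadjusted p under 0.05, where 18.9% of all genes did. Ehhadh and Etfa were higher in DW at log2 differences of 0.76 ± 0.25 (limma adjusted p = 0.134) and 0.43 ± 0.15 (0.168), and Crat, Etfb and Ppard were lower at -0.53 ± 0.22 (0.218), -1.29 ± 0.52 (0.212) and -0.74 ± 0.34 (0.25). In each of these 5 genes the DW values farthest from the SW group belonged to animals 82 and 83. The muscle genes also had lower values in the DW females (median log2 difference over the 12 genes -3.02, 6 at an unadjusted p under 0.05), as were the mammary genes (-1.15, 5 of 7). Without animals 82 and 83 the differences of the 5 genes were 0.35, 0.07, -0.05, -0.29 and 0.19 in the order given, the last of opposite sign, and 0 of 32 genes were called (0.0437% of all genes). Without DW female 76, which left 82 and 83 as 2 of 3 animals, all 5 were called (adjusted p = 0.0231, 0.029, 0.042, 0.0474 and 0.0438), and without DW female 77 only Etfa was (0.0397).

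**Figure D5:**
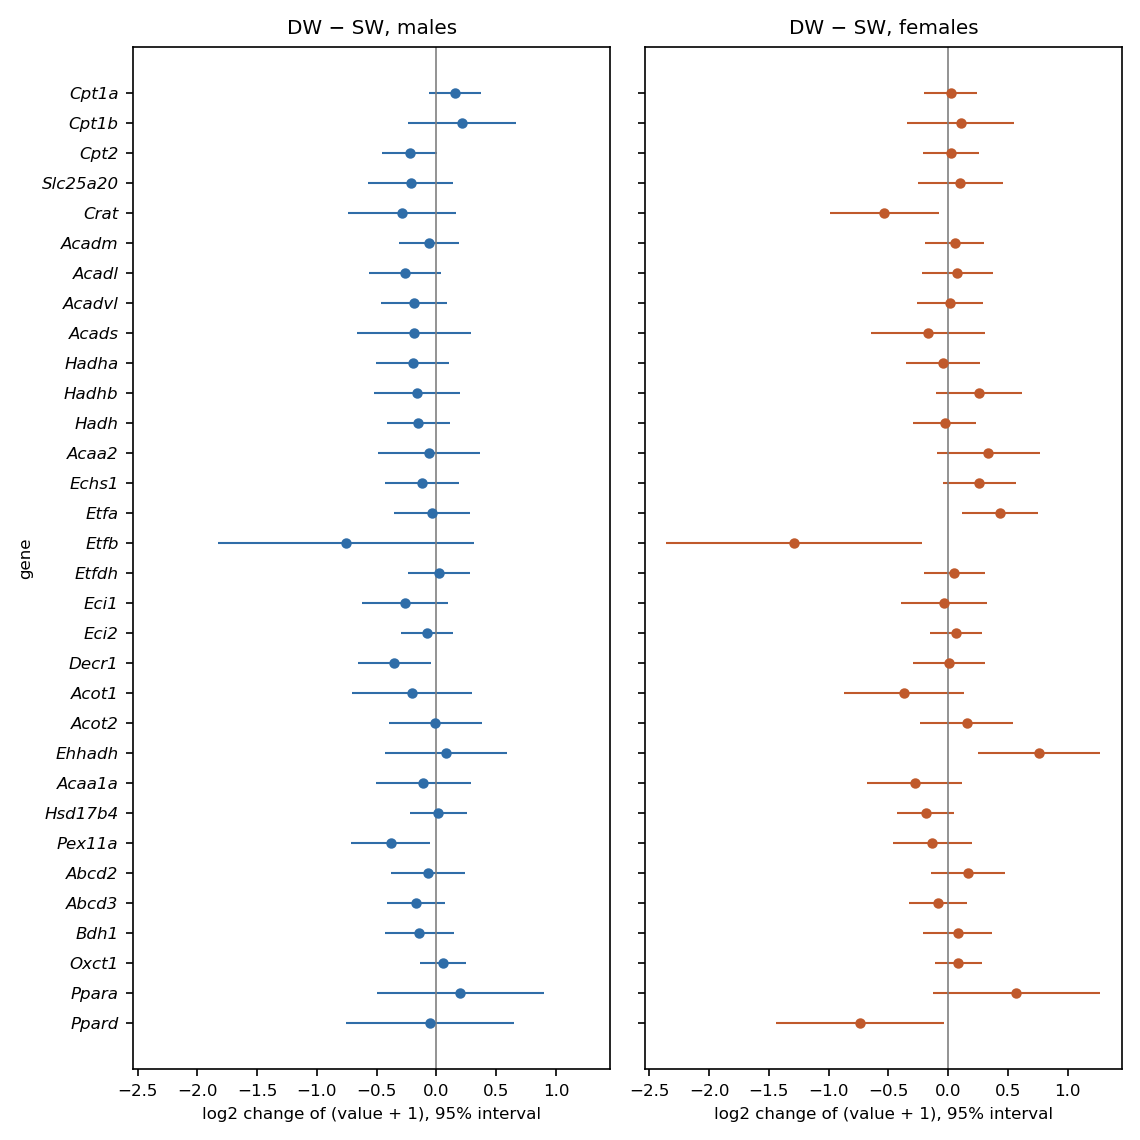
Log2 difference between DW and SW animals at day 28 for each of the 32 genes in males (left) and females (right); points are limma estimates on log2(normalised value + 1) and lines their 95% intervals, n = 4 per group. No gene was called at a limma adjusted p under 0.05; the intervals of Etfb, Ppara and Ppard are wide, and before adjustment those of Ehhadh and Etfa in females lie above 0 and those of Crat, Etfb and Ppard in females and of Decr1 and Pex11a in males lie below 0.

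Without overlap between the 2 weaning groups were Etfb in males (16.3, 28.8, 16.3 and 13.6 in SW and 13.3, 12.5, 11.1 and 5.94 in DW, lower in DW) and Acot1 in females (2.52, 2.60, 3.08 and 2.56 in SW and 2.31, 2.08, 1.46 and 1.65 in DW, lower in DW), that is 1 of 32 genes in each sex, where 3.4% and 3.52% of all genes were apart in this direction. The difference between the sexes in the weaning effect was called for 0 of 32 genes by limma, edgeR and DESeq2, where limma called 0.0187% of all genes, and at an unadjusted p under 0.05 for 1 gene (5.09% of all genes), Etfa (0.47 ± 0.22, limma adjusted p = 0.802).

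Females and males of the same age and weaning were compared next. At p21 limma called none of them (0.356% of all genes), and 5 had an unadjusted p under 0.05 (8.6% of all genes). Ppara (9.17 to 17.02 in males and 19.2 to 27.6 in females) and Abcd3 (126 to 142 and 144 to 148) did not overlap and were higher in females, where 2.98% of all genes were so. DESeq2 called 1 gene at p21, Acot1 (adjusted p = 0.0233), and so did limma without p21 female 55 (0.0348). In SW animals limma called 1 gene higher in females, Acot1, and 1 lower, Ehhadh, against 3.54% of all genes (3.36% higher and 0.181% lower). Not overlapping in SW animals were 1 gene higher (Acot1) and 2 lower (Ehhadh and Acadm) in females, where 6.27% and 1.5% of all genes were so. Of the 32 genes 27 were lower in SW females (84.4%, all genes 47.9%), with a median of -0.17 beside 0.01.

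Acot1 was at 1.49, 0.966, 1.18 and 0.468 in SW males and 2.52, 2.60, 3.08 and 2.56 in SW females, without overlap (log2 difference 0.89 ± 0.24, limma adjusted p = 0.0401). At these low values the size depends on the pseudocount: the difference was 1.40 with a pseudocount of 0.1 and 1.36 with edgeR, and DESeq2 kept the call (adjusted p = 0.0304). The call was lost without SW male 84, 85 or 124 (adjusted p = 0.0994, 0.0635 and 0.166) or SW female 73, 74, 75 or 81 (0.0829, 0.0811, 0.123 and 0.0775), and with edgeR (0.121), a filter of a value of at least 1 in 4 samples (0.0505), a pseudocount of 0.1 (0.0588) or the run of animal numbers as a covariate (0.0588). Without SW female 81, Cpt1a and Cpt2 were also called lower in SW females (adjusted p = 0.0492 and 0.0481).

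In DW animals limma called 1 of 32 genes, Cpt1a, lower in females (-0.43 ± 0.11, adjusted p = 0.0285), against 2.46% of all genes (1.89% higher and 0.569% lower). Not overlapping were Bdh1 and Acot1, higher in females, and Hsd17b4 and Cpt1a, lower, where 5.6% and 5.26% of all genes were so. All 4 DW females, at 42.6 to 53.3, were below all 4 DW males, at 58.2 to 75.8. The call was lost without DW male 80, 86 or 87 (adjusted p = 0.0585, 0.126 and 0.0747), without DW female 82 (0.13) or 83 (0.0681) or both (0.304, log2 difference -0.34), with the muscle covariate (0.159) and with only these groups fitted (0.136). Acot1, at 0.72 ± 0.24 (adjusted p = 0.115), was called higher in DW females by DESeq2 (1.37, 0.0301), with only these groups fitted (0.0102) and with the run of animal numbers as a covariate (0.0211). Without DW female 76, Crat and Hsd17b4 were added as lower in females (adjusted p = 0.0296 and 0.0392), and without DW female 77 they were also called (0.0395 and 0.0473). The difference between the sexes in the age change was called for 0 of 32 genes in SW animals (1.03% of all genes) and 0 in DW animals (0.0687%), with 8 and 6 of the 32 genes at an unadjusted p under 0.05 (8.15% and 17% of all genes); edgeR called 0 in both, and DESeq2 1 and 0.

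Other genes of the same pathways are given from lists chosen for their function. Of all genes, limma called 6.9% higher and 4.97% lower in SW males, and these shares were 8.86% and 6.1% for DW males, 7.39% and 4.23% for SW females and 5.95% and 6.16% for DW females. These shares and the list calls in this and the next paragraph are from the fit without a covariate. That fit includes DW females 82 and 83, which stood apart. With the muscle genes as a covariate, 2.37% of all genes were called in SW males and 3.81% in DW males. List calls in such other settings are not reported here. Of 14 genes of fatty acid activation and entry, limma called 6 higher and 0 lower in SW than in p21 males. In DW males it called 5 higher and 1 lower, in SW females 1 of each, and in DW females 0 higher and 2 lower. Slc27a1, a fatty acid transport protein, changed by 1.20 in SW and 0.80 in DW males on the log2 scale. Acacb, which makes the malonyl-CoA that inhibits Cpt1, changed by 0.66 in SW males (limma adjusted p = 0.0443) and by -0.81 in DW females (0.0152). Of 18 further peroxisomal genes, 4 were higher and 0 lower in each male comparison, 2 higher and 1 lower in SW females and 1 higher and 0 lower in DW females. Eci3, a peroxisomal isomerase, rose in all 4 comparisons, by 1.88, 1.69, 1.15 and 1.22 in SW males, DW males, SW females and DW females. Its values were 1.75 to 3.28 in p21 males, 7.09 to 14.8 in SW and 8.38 to 10.9 in DW males.

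Among further ketone genes, the thiolase Acat1 fell in DW males (-0.31), SW females (-0.56) and DW females (-0.41). Of 16 PPAR regulators and targets, limma called 3 higher and 1 lower in SW males and 4 higher and 0 lower in DW males. In SW females 1 was higher and 4 were lower, and in DW females 0 and 3. Angptl4, an inhibitor of lipoprotein lipase, rose by 1.21 in SW males, 1.24 in DW males and 0.79 in SW females, and the coactivator genes Ppargc1b and Ppargc1a fell by 1.05 and 0.88 in DW females. Beside the shares of all genes called lower (4.97%, 6.1%, 4.23% and 6.16%), of 14 citric acid cycle genes 0 were higher in any age comparison, and 1 was lower in SW males, 4 in DW males, 6 in SW females and 10 in DW females, in the same order. No gene of these lists was called between DW and SW animals by limma in either sex.

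Calls in the authors' deposited table are taken at a value under 0.05 in the columns labelled as adjusted p. By this rule 0 of 32 genes were higher and 2 lower in DW than in SW males, where 7.59% of 16108 genes were called. The 2 genes in the authors' deposited table were Decr1 (-0.37, labelled adjusted p = 0.0171) and Pex11a (-0.42, 0.0143), those with an unadjusted limma p under 0.05. For these genes the limma p was 0.0254 and 0.0251 before adjustment and 0.615 and 0.614 after it. Before adjustment limma had 6.94% of all genes under 0.05 in males and 18.9% in females. The authors' labelled values thus lie nearer to the unadjusted limma p, and how they were adjusted was not tested. In DW against SW females the authors' deposited table has 3 higher (Ehhadh, Etfa and Ppara at 0.80, 0.48 and 0.79) and 1 lower (Crat at -0.48), where 16.9% of genes were called. Between the sexes the authors' deposited table has 5 genes higher and 1 lower in females at p21 (10.4% of genes called), 1 higher and 6 lower in SW (9.21%) and 1 higher and 4 lower in DW animals (19.6%). With age the authors' deposited table has 5 higher and 2 lower in SW males (28.5%), 3 and 5 for DW males (31.3%), 1 higher and 9 lower in SW females (23.9%) and 1 higher and 7 lower in DW females (27.3%). For Cpt1a from p21 to p28 the authors' deposited table gives log2 changes of 0.79 in SW males, 0.95 in DW males, 0.50 in SW females and 0.51 in DW females.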

How the data were processed

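Poly(A)-selected RNA libraries of 24 animals were analysed. Per the submitters' processing notes, fastp, HISAT2, featureCounts and DESeq2 1.38.3 were used with the mm10 genome. The deposited signal values are reads per gene divided by 1 factor per library, which the authors did before deposit; within a tolerance of 0.01, 100.0% of the values are whole multiples of the smallest value of their library, so whole reads were recovered. The authors' deposited table also holds log2 fold changes and adjusted p-values per comparison, read as given and credited where printed. Of 16208 rows, 90 repeats were dropped, leaving 16118 genes.

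Differences were tested with limma 3.58.1 (trend) on log2(value + 1), with all 24 libraries and 6 group means (18 residual degrees of freedom), over 16005 genes passing a minimum count of 10 in edgeR's filter, with Benjamini-Hochberg adjustment over all of them and a threshold of 0.05; fold changes are on that log2 scale, which understates changes of low genes. Errors are SE of the limma contrast or SD where stated. The test was checked on simulated data. Alternatives were edgeR 4.0.16 and DESeq2 1.42.0 on the recovered reads, other filters, a pseudocount of 0.1, only the groups compared, the muscle list (mean log2 value) or the run of animal numbers as a covariate, and each animal left out. Leaving out p21 male 53 and DW females 82 and 83 was added after seeing the data. On the recovered reads, edgeR called 1801 genes between p21 and SW males and 1472 between p21 and SW females, where limma called 1901 and 1860. All 32 genes may be named; of other lists, up to 3 called genes with the largest change per comparison. The 32 genes and all lists were chosen with earlier results of these data known. Exon lengths per gene are from GENCODE M21, promoters from RefSeq on GRCm38.p6; no promoter was used for Acaa2 and Hsd17b4, nor for Cpt1b, Crat, Decr1 and Abcd2. Deposited gene positions were not used, since 0.708% of 15951 gene starts equal those of GRCm38. Some genes of the further lists are not reported here. R 4.3.3 and Python 3.11.15 were used.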

Additional observations from a re-analysis of the deposited data

Results flagged for a closer look

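In 11 of the 192 combinations of a gene and a group, 1 animal lay far from the other 3 of its group by Dixon's test at the 95% level, where chance gives about 1 in 20, or 9.6. SW female 75 accounted for 5 of the 11. It was the lowest of its group for the dehydrogenases Acadl (322 against 428 to 447 in the other 3) and Acadvl (297 against 373 to 386 in the other 3). It was also lowest for Etfa (163 against 195 to 201 in the other 3) and Pex11a (46.9 against 51.8 to 52.7 in the other 3). It was the highest for Acot1 (3.08 against 2.52 to 2.60 in the other 3). DW female 82 was the highest of its group for Acaa2 (279 against 184 to 185 in the other 3) and Hadh (332 against 275 to 279.9 in the other 3). The remaining 4 came from 4 animals: Acads was high in DW male 80 (88.8 against 64.3 to 66.4 in the other 3), Hadhb was high in p21 male 54 (572 against 451 to 463 in the other 3), Eci2 was low in SW male 124 (66.2 against 81.5 to 84.7 in the other 3) and Abcd2 was high in p21 female 56 (375 against 279 to 293 in the other 3).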

How the results depend on the processing

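Of 22 gene results called, 7 were called under every alternative run: Cpt1a in all 4 age comparisons, and Etfdh, Acadm and Acaa2 in SW females. The numbers of the 32 genes called moved as follows, and where no cause is named it was not tested. With the muscle genes as a covariate, 1 gene was called in SW males and 1 in DW males in place of 4 each, and 0 in place of 1 between DW females and males. Fitting only the groups compared left 1 of 4 in DW females with age and 1 of 2 between SW females and males. Between SW females and males, edgeR, a filter of a value of at least 1 in 4 samples, a pseudocount of 0.1 and the run covariate also left 1 of 2. DESeq2 called 1 in place of 0 between the sexes at p21, 2 in place of 1 between the sexes in DW animals, 1 in place of 0 for the sex difference in the SW age change, and 6 in place of 4 in DW males; the run covariate gave 2 in DW animals. Without DW females 82 and 83, 7 in place of 4 were called in DW females with age and 0 in place of 1 between the sexes in DW animals. Without p21 male 53 as well, these were 9 and 0, at the same log2 changes and another shared spread, and DW males had 2 in place of 4. Both settings turned the DW minus SW difference of Ppard in females to 0.19 and the age change of Crat in DW females from -0.48 to 0.00068. Apart from the fits without 1 animal, which are given below, all other alternatives kept the counts within 1.5 times.

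With 1 animal left out at a time, the number called ranged from 0 to 5 for DW against SW in females (5 without DW female 76, 1 without 77), 1 to 3 with age in SW males (1 without SW male 84 or 85, 2 without p21 male 53 or 54), 4 to 6 in SW females (4 without SW female 75) and 1 to 7 in DW males (7 without p21 male 37, 1 without p21 male 53 or DW male 87, 2 without p21 male 54). It was 3 to 6 in DW females with age, 0 to 1 between the sexes at p21, 0 to 3 in SW and 0 to 3 in DW animals, and 0 to 1 for the sex difference in the SW age change. For DW against SW in males, the sex difference in the weaning effect and that in the DW age change it was 0 throughout. Over all genes, edgeR and DESeq2 called 71 and 290 between DW and SW females, where limma called 204, and 29 and 114 between DW and SW males, where limma called 41. No paired analysis was possible because no animal number is shared between groups. Depth was lowest for Acot1 (26 to 542 reads) and Cpt1b (37 to 394 reads). With 4 animals a group, differences within the printed intervals were not resolved.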
